A study of Homo sapiens with 6 samples.

Results

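The expression of 10 genes of the NF-κB pathway was followed in RKO cells, a human line established from a colorectal carcinoma. The genes were listed by name and role. They are the 5 NF-κB subunits (NFKB1, NFKB2, REL, RELA and RELB), 3 inhibitors of the IκB family (NFKBIA, NFKBIB and NFKBIE), the deubiquitinating enzyme TNFAIP3, also called A20, and the kinase IKBKE. All 10 were found among the 58735 genes of the expression table, and all 10 were among the 16061 genes that passed the filter on low values. RNA sequencing covered 3 control libraries (Vector) and 3 libraries of cells overexpressing the long non-coding RNA LOC101927668 (LOC_OE). LOC_OE cells carried the full-length transcript from a lentiviral plasmid and had been selected with puromycin, and Vector cells were their stably transduced controls. The series text calls the 3 libraries of a group biological replicates. Whether each line was a clone or a pool, and whether the replicates came from separate transductions, is not given in the sources used here, so p-values measure the spread between these libraries.

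NF-κB proteins act as dimers that bind κB sites in DNA. In resting cells most dimers are held in the cytoplasm by IκB proteins, and signals from receptors such as those for TNF and IL-1 lead to phosphorylation and degradation of IκB by way of the IKK complex. NFKB2 and RELB form the dimer of the non-canonical pathway, whereas RELA, REL and the p50 product of NFKB1 serve the canonical one. Several genes of the system, among them NFKBIA, TNFAIP3, NFKB2 and RELB, are themselves transcribed under NF-κB control, so that the pathway limits its own output. NF-κB was among the transcription factors that the study considered as possible intermediates of the long non-coding RNA.

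The transduced RNA marked the groups as labelled. LOC101927668 (ENSG00000243004) had at most 1 read in a Vector library and between 231 and 276 reads in the LOC_OE libraries. Totals were between 15008842 and 18410231 reads on genes. LOC_OE replicate 1 stood apart from its group, with a Pearson correlation across genes of 0.967 and 0.962 with LOC_OE replicates 2 and 3, against 0.982 between those 2 libraries. Of 10 colorectal epithelial markers, EPCAM, KRT8, KRT18 and CDX2 passed the filter, whereas CDH1 and CDX1 were listed at 0 in every library. KRT19, KRT20, VIL1 and LGALS4 were below 0.5 FPKM in every library. The summed FPKM of the 10 markers was 39.4 to 41.5 in Vector and 89.6 in LOC_OE replicate 1. In LOC_OE replicates 2 and 3 it was 48.9 and 48.4. Most of the rise was KRT18, at 18.1 to 19.8 FPKM in Vector and 67.5, 25.3 and 25.1 FPKM in LOC_OE. In LOC_OE replicate 1, KRT8 was below its Vector libraries (9.02 FPKM), whereas EPCAM and CDX2 were above theirs (7.49 and 5.56 FPKM). The part of these differences in the results was not tested. All 10 markers of leukocytes and fibroblasts were below 0.5 FPKM in every library. FPKM is the number of fragments per kilobase of gene, here scaled by a size factor of each library (median of ratios), not by its total of reads on genes.

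Sequences that match the κB motif stood in the promoters of members that fell and of members that did not. They are shown because genes bound by NF-κB are the ones through which the pathway regulates its own parts. RefSeq promoters (GRCh38.p14, 250 bases before to 50 after a start) were on hand for 8 of the 10 genes, and both strands were searched for the 10-base κB motif. Capitals mark the match, each sequence is written 5′ to 3′ on the strand of its gene, and overlapping matches were joined.
NFKB2 (chr10:102394462-102394490, plus strand, from base -107): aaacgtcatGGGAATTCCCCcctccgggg
NFKB2, another start (chr10:102395674-102395703, plus strand, from base -21): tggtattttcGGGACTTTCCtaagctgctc
NFKBIA (chr14:35404811-35404840, minus strand, from base -81): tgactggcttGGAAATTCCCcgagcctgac
TNFAIP3 (chr6:137867182-137867211, plus strand, from base -67): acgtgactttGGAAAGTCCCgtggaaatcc
TNFAIP3, a further match (chr6:137867194-137867223, plus strand, from base -55): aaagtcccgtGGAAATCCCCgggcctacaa
NFKB1 (chr4:102501300-102501329, plus strand, from base -49): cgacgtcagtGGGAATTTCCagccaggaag
REL (chr2:60881518-60881546, plus strand, from base -47): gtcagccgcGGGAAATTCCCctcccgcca
NFKBIB (chr19:38899932-38899960, plus strand, from base -28): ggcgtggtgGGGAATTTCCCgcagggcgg
The motif was found for 6 of the 8 genes. Of the 9464 tested genes with a promoter it was found for 846 (8.94%), and of all 27305 genes with a promoter for 1937 (7.09%). RELA and IKBKE held no match in these windows. NFKB2 held 2 further matches that are not shown. The motif stood with all 3 called members that had a promoter, NFKB2, NFKBIA and TNFAIP3, and with 3 of the 5 members not called, NFKB1, REL and NFKBIB. The members without a promoter in the table, RELB and NFKBIE, were both called.

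In Vector cells the levels of the 10 genes spread widely. NFKB2 was the most abundant, at 46.0 ± 2.08 FPKM (SD, n = 3 libraries, as for all means below), above 95.5% of the tested genes. It was followed by NFKBIA at 26.6 ± 1.92, RELA at 24.3 ± 0.151, NFKBIB at 19.4 ± 2.01, NFKBIE at 15.2 ± 0.391, RELB at 12.3 ± 1.14 and NFKB1 at 8.48 ± 0.347 FPKM. TNFAIP3, IKBKE and REL were low, with 2.95 ± 0.178, 2.43 ± 0.269 and 1.01 ± 0.173 FPKM. The Vector libraries of neighbours in this order did not overlap, although NFKBIA and RELA were separated by little (24.5 FPKM in the lowest NFKBIA library and 24.4 in the highest RELA library). In LOC_OE the order was RELA, NFKB2, NFKBIB, NFKBIA, NFKB1, NFKBIE, RELB, IKBKE, REL and TNFAIP3. There the libraries overlapped between all neighbours apart from RELB and IKBKE, and IKBKE and REL. TNFAIP3 moved from the eighth to the last place.

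Of the 10 genes, 5 were lower in LOC_OE and 0 were higher, counting as called a gene with a fold change of 1.5 or more and an adjusted p under 0.05 in limma (Benjamini-Hochberg over all tested genes). The genes that fell were NFKB2, RELB, NFKBIA, NFKBIE and TNFAIP3. At an unadjusted p under 0.05 only NFKB1 was higher. Among all 16061 tested genes, 10.2% were called, 5.58% lower and 4.63% higher, and 9.74% were lower at an adjusted p under 0.05 without regard to size. The libraries of the groups did not overlap for 6 of the 10 genes, 5 lower and 1 higher, against 45.3% of all tested genes (20.9% lower and 24.4% higher). The 10 genes had a median log2 fold change of -0.45, against 0.019 over all tested genes. Of these calls, NFKB2, NFKBIA and TNFAIP3 held in each of the 6 fits that left out 1 library, whereas RELB held in 2 and NFKBIE in 1. The number called was 3 without Vector replicate 1, 2 or 3 and without LOC_OE replicate 2. Over all tested genes, those fits called 672, 371, 474 and 1303, in place of 1639 with all libraries. Without LOC_OE replicate 1, the library that stood apart, 5 members were called, all lower, where 5.84% of all genes were called lower and 4.56% higher. With limma voom on recovered reads the same 5 were called lower, where 5.93% of the genes in that fit were.

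**Figure D1:**
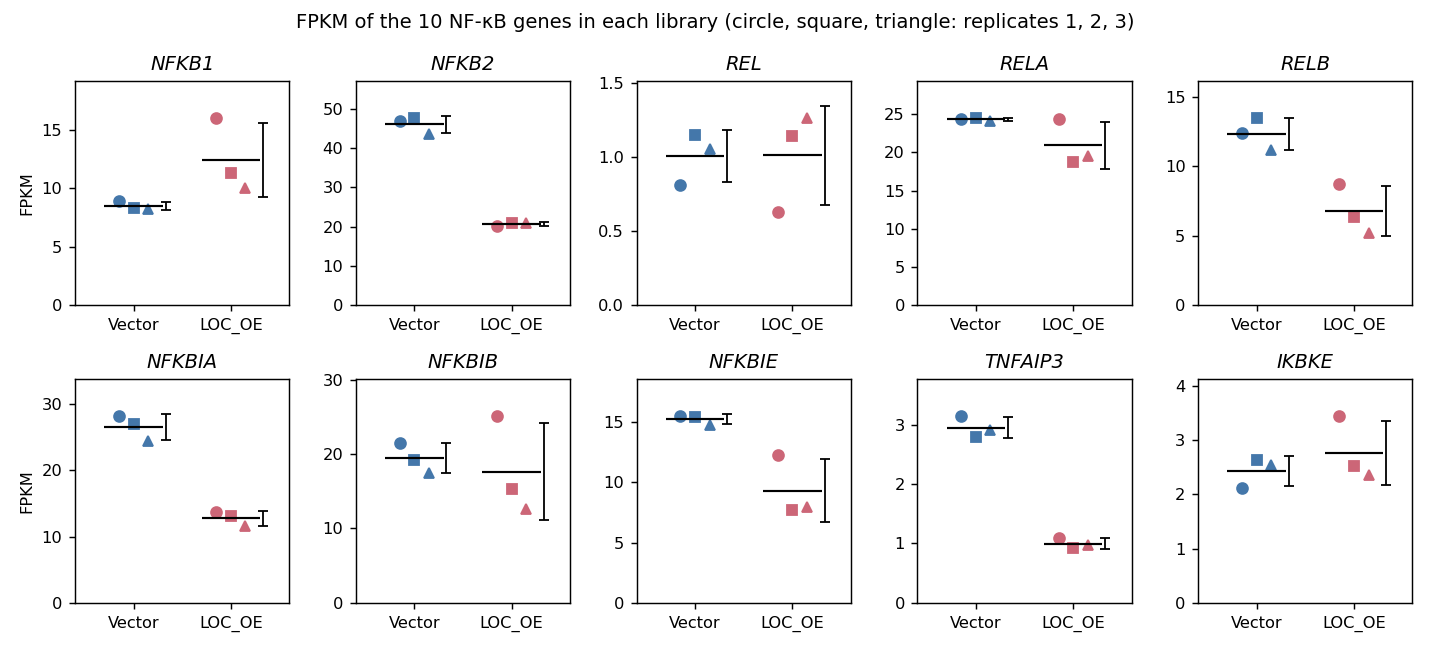
FPKM (vertical axis, from 0) of each of the 10 genes in the 3 Vector (blue) and 3 LOC_OE (red) libraries, with the group mean as a line and the SD as a bar. For NFKB2, RELB, NFKBIA, NFKBIE and TNFAIP3 all LOC_OE points lie under all Vector points, and for NFKB1 above them.

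Among the subunits, NFKB2, which encodes the precursor p100 and its product p52, fell most. NFKB2 (ENSG00000077150, chromosome 10 from 102394110 to 102402529, plus strand, GRCh38) had 46.8, 47.6 and 43.7 FPKM in the Vector libraries and 20.1, 21.0 and 20.9 FPKM in the LOC_OE libraries. The groups were far apart, and the LOC_OE libraries lay closer together than those of any other member. The fitted change of NFKB2 was -1.12 on the log2(FPKM + 1) scale (standard error, SE, 0.076, limma adjusted p = 0.00257), and the LOC_OE mean was 44.9% of the Vector mean. Between 3642 and 3961 reads in Vector and between 1376 and 1510 reads in LOC_OE stood behind these values.

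RELB, the partner of p52, fell as well, with more spread. RELB (ENSG00000104856, chromosome 19 from 45001430 to 45038198, plus strand) had 12.4, 13.4 and 11.2 FPKM in Vector and 8.73, 6.37 and 5.20 FPKM in LOC_OE. The groups did not overlap, but LOC_OE replicate 1 was nearest to Vector. The fitted change of RELB was -0.80 on the log2 scale (SE 0.17, limma adjusted p = 0.0250) with all libraries and -0.98 without LOC_OE replicate 1. Its adjusted p from limma rose to 0.105 without Vector replicate 2, and to 0.0551 when genes of low FPKM were kept in.

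The subunits of the canonical pathway were not called. RELA (ENSG00000173039, chromosome 11 from 65653596 to 65663094, minus strand), which carries the transactivation domain of the main canonical dimer, had 24.3, 24.4 and 24.1 FPKM in Vector. In LOC_OE it had 24.4, 18.7 and 19.6 FPKM, so that replicate 1 lay within the Vector range and the other 2 below it. The log2 fold change of RELA was -0.22 (95% confidence interval -0.48 to 0.052, limma adjusted p = 0.213). With the libraries rescaled to the same sum of FPKM it was -0.47 (limma adjusted p = 0.00858), also short of a fold change of 1.5. NFKB1 (ENSG00000109320, chromosome 4 from 102501329 to 102617302, plus strand), the gene of p105 and p50, had 8.88, 8.31 and 8.26 FPKM in Vector and 16.0, 11.3 and 10.0 FPKM in LOC_OE. NFKB1 was the only member with every LOC_OE library above every Vector library, a pattern shared by 24.4% of all tested genes. Its log2 fold change was 0.48 (95% confidence interval 0.084 to 0.87, limma adjusted p = 0.0862). Without LOC_OE replicate 1 both passed the adjusted threshold, NFKB1 at 0.30 and RELA at -0.33 on the log2 scale (limma adjusted p = 0.0237 and 0.00396), short of a fold change of 1.5. In that fit 16.1% of all tested genes were lower at an adjusted p under 0.05, against 9.74% with all libraries. The share that was higher in that fit was not counted.

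REL, the gene of c-Rel, was near the lower end of the detected range. REL (ENSG00000162924, chromosome 2 from 60881521 to 60931610, plus strand) had 0.813, 1.15 and 1.06 FPKM in Vector and 0.631, 1.14 and 1.26 FPKM in LOC_OE. The groups overlapped, and LOC_OE replicate 1 was the lowest of all 6 libraries. The log2 fold change was -0.0074 (95% confidence interval -0.39 to 0.38, limma adjusted p = 0.978).

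Among the inhibitors, NFKBIA, the gene of IκBα, showed the clearest decrease. NFKBIA (ENSG00000100906, chromosome 14 from 35401511 to 35404749, minus strand) had 28.2, 27.1 and 24.5 FPKM in Vector and 13.7, 13.1 and 11.6 FPKM in LOC_OE. The groups were well separated and each was tight. The fitted change of NFKBIA was -1.0 on the log2 scale (SE 0.098, limma adjusted p = 0.00459), and the LOC_OE mean was 48.1% of the Vector mean.

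NFKBIE, the gene of IκBε, fell by less and less evenly. NFKBIE (ENSG00000146232, chromosome 6 from 44258166 to 44265788, minus strand) had 15.5, 15.4 and 14.8 FPKM in Vector and 12.3, 7.71 and 7.91 FPKM in LOC_OE. All LOC_OE libraries were lower, with replicate 1 nearest to Vector. The fitted change of NFKBIE was -0.68 on the log2 scale (SE 0.17, limma adjusted p = 0.0365), and -0.88 without LOC_OE replicate 1. The adjusted p from limma reached 0.124 without Vector replicate 2, and with genes of low FPKM kept in it was 0.0753.

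NFKBIB, the gene of IκBβ, was not called. NFKBIB (ENSG00000104825, chromosome 19 from 38899700 to 38908893, plus strand) had 21.5, 19.2 and 17.5 FPKM in Vector and 25.1, 15.2 and 12.6 FPKM in LOC_OE. LOC_OE replicate 1 lay above all Vector libraries and the other 2 below them, the widest spread of the 10 genes in LOC_OE (37.3% of the mean). The log2 fold change was -0.18 (95% confidence interval -0.76 to 0.39, limma adjusted p = 0.621). It was -0.45 without LOC_OE replicate 1 (limma adjusted p = 0.0259), a fit in which 16.1% of all tested genes were lower at an adjusted p under 0.05. The span of NFKBIB overlaps SIRT2 on the opposite strand, at a mean of 10.7 FPKM in Vector and 7.94 FPKM in LOC_OE, and how reads were assigned to strands is not given in the sources used here.

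TNFAIP3, which removes ubiquitin chains from signaling proteins upstream of IKK and so ends the response, had the largest relative decrease of the 10 genes. TNFAIP3 (ENSG00000118503, chromosome 6 from 137867188 to 137883312, plus strand) had 3.14, 2.79 and 2.92 FPKM in Vector and 1.10, 0.926 and 0.970 FPKM in LOC_OE. All 3 LOC_OE libraries stood far below Vector, with 72 to 89 reads against 262 to 298. The LOC_OE mean was 33.8% of the Vector mean, a log2 ratio of -1.56. The fitted change of TNFAIP3 was -0.98 on the log2 scale (SE 0.092, limma adjusted p = 0.00404), since adding 1 to the FPKM compresses the change of a gene at this level. The antisense gene AL357060.1 overlaps TNFAIP3, at a mean of 0.258 FPKM in Vector and 0.0782 FPKM in LOC_OE, and reads of the pair may not be told apart.

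IKBKE, an IKK-related kinase that is itself induced by NF-κB, was not called. IKBKE (ENSG00000263528, chromosome 1 from 206470476 to 206496889, plus strand) had 2.12, 2.63 and 2.54 FPKM in Vector and 3.44, 2.52 and 2.35 FPKM in LOC_OE. The groups overlapped, with LOC_OE replicate 1 above the rest. The log2 fold change was 0.13 (95% confidence interval -0.20 to 0.45, limma adjusted p = 0.532).

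**Figure D2:**
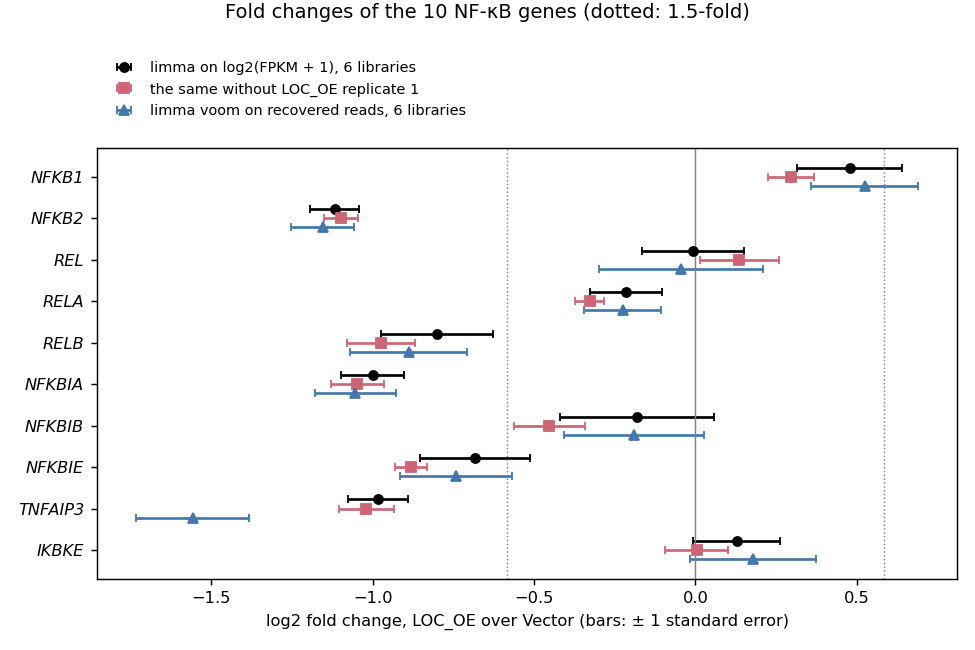
Log2 fold change of LOC_OE over Vector (horizontal axis, bars of 1 standard error) from limma on log2(FPKM + 1) with all 6 libraries (black), without LOC_OE replicate 1 (red) and from limma voom on recovered reads (blue). NFKB2, RELB, NFKBIA, NFKBIE and TNFAIP3 lie beyond the dotted 1.5-fold line in all 3 fits, and TNFAIP3 moves from -0.98 to -1.56 with voom.

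The libraries of LOC_OE differed more among themselves than those of Vector for most members. LOC_OE replicate 1 had the highest LOC_OE value for 8 of the 10 genes. Over all genes its sum of FPKM was also the largest, 360434 against 310012 and 305702 in LOC_OE replicates 2 and 3. The share of all genes highest in this library was not counted, so the pattern may not be particular to these genes. LOC_OE replicate 1 differed by gene. It exceeded the mean of LOC_OE replicates 2 and 3 by a factor of 1.80 for NFKBIB, 1.57 for NFKBIE, 1.51 for RELB and 1.41 for IKBKE. For NFKB2 and NFKBIA the same factor was 0.959 and 1.11. The coefficient of variation in LOC_OE was 2.41% for NFKB2, 8.69% for NFKBIA and 9.09% for TNFAIP3, and it was between 14.7% and 37.3% for the other 7 genes.

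The make-up of the subunit and inhibitor messages differed between the groups, which was examined in 13 sums, shares and ratios. The FPKM of the 5 subunits summed to 93.2, 94.9 and 88.3 in Vector and to 69.8, 58.6 and 56.9 in LOC_OE. NFKB2 made up 49.9% ± 0.416 of this sum in Vector and 33.8% ± 4.36 in LOC_OE, and NFKB1 made up 9.21% ± 0.403 and 19.9% ± 2.71. The ratio of NFKB2 to NFKB1 was 5.27, 5.72 and 5.29 in Vector and 1.26, 1.85 and 2.09 in LOC_OE. These measures did not overlap between the groups (p = 0.10 in a two-sided exact permutation test, which cannot go lower with 3 libraries a group, and 0.13 after Benjamini-Hochberg adjustment over the 13 measures). The ratio of RELB to RELA was likewise lower in all LOC_OE libraries, at 0.507 ± 0.0437 in Vector and 0.321 ± 0.0486 in LOC_OE.

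The summed inhibitors, like the summed subunits, were lower in each LOC_OE library than in the Vector libraries (p = 0.10 in the same exact permutation test). Their FPKM added up to 65.2, 61.7 and 56.7 in Vector and to 51.1, 36.1 and 32.1 in LOC_OE. The inhibitor sum per subunit sum was 0.664 ± 0.0307 in Vector and 0.637 ± 0.0858 in LOC_OE, and the libraries overlapped (two-sided exact permutation test, p = 0.70). Within the inhibitors, NFKBIA made up 43.4% ± 0.381 in Vector and 33.1% ± 5.40 in LOC_OE, and NFKBIB 31.7% ± 1.16 and 43.6% ± 5.03.

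**Figure D3:**
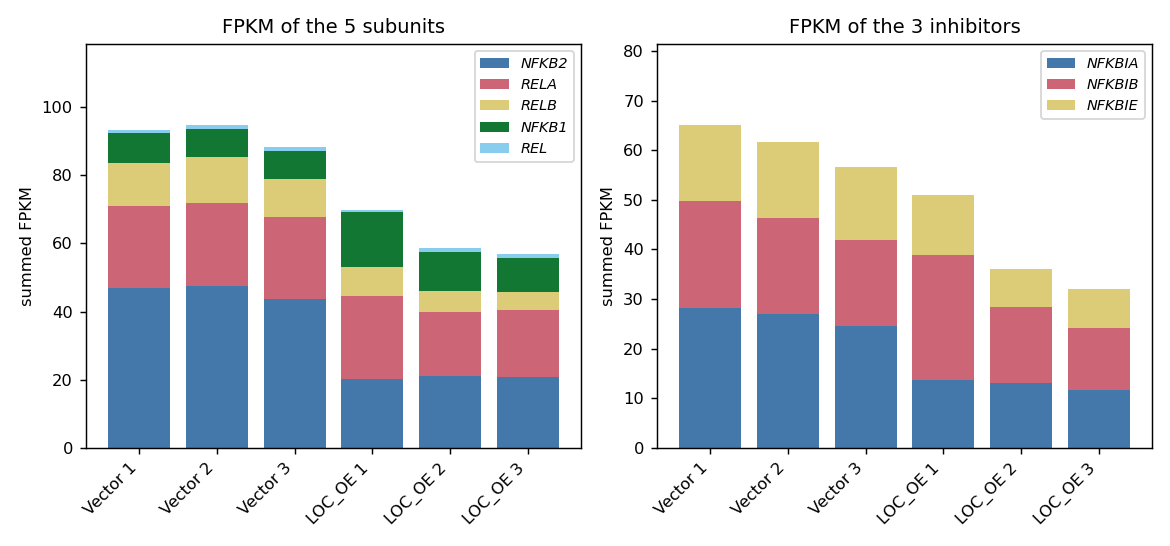
Summed FPKM (vertical axis, from 0) of the 5 subunits (left) and the 3 inhibitors (right) in each library, stacked by gene. The subunit sum lies between 88.3 and 94.9 in Vector and between 56.9 and 69.8 in LOC_OE, with NFKB2 as the part that shrinks most.

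Other genes of the pathway were taken from lists written by role, 110 genes in all, of which 80 passed the filter. Of these, 10 were called lower and 6 higher in LOC_OE, beside the 10.2% called of all tested genes. With the libraries rescaled to the same sum of FPKM, 17 were lower and 4 higher. That rescaling moved the median over all tested genes to -0.18 on the log2 scale, with 1795 genes called lower and 259 higher in place of 896 and 743. The target gene list held 12 of the 16 calls, and no test compared the lists. The 10 called lower, the 12 and the 16 all include CXCL8, which passed the filter through Vector alone.

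Target genes of NF-κB were the list with most calls, and also the longest list. Of 41 listed genes, 28 passed the filter, 8 were called lower and 4 higher, and 5 of the 41 are also in another list. Among all tested genes, 5.58% were called lower and 4.63% higher. The 28 had a median log2 fold change of -0.35. A gene expressed in Vector alone can pass the filter because it is high there, as CXCL8 did, so these counts describe the genes that passed. CXCL8 is counted among the 8 called lower and, below, among the 10 called target genes with a promoter. The motif described above stood in a promoter of 20 of the 35 target genes that had one. Of the called target genes with a promoter it stood in 1 of 10, BIRC3, and of those not called or not tested in 19 of 25. Only the 1 fixed pattern was searched for, so these counts cannot show which genes lack a κB site.

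EBI3, a subunit of the cytokines IL-27 and IL-35, and CXCL8, the chemokine IL-8, were furthest below Vector. EBI3 had 14.7, 14.8 and 16.0 FPKM in Vector and 1.17, 2.14 and 3.55 FPKM in LOC_OE (a change of -2.36 on the log2 scale, limma adjusted p = 0.00552). CXCL8 had 5.04, 3.95 and 5.06 FPKM in Vector and 0.110, 0.439 and 0.419 FPKM in LOC_OE, which is 167 to 215 reads against 4 to 16. CXCL8 was under 0.5 FPKM in all 3 LOC_OE libraries and passed the filter through Vector alone, so its values are given with no test. By the ratio of means CXCL8 was at 6.89% and EBI3 at 15.1% of Vector. BIRC3, the ubiquitin ligase cIAP2, went from 10.0 ± 0.972 to 1.94 ± 0.887 FPKM, and TRAF1, an adaptor of TNF receptors, from 4.62 ± 0.481 to 0.950 ± 0.360 FPKM. All 4 genes were lowest in LOC_OE replicate 1. The calls of EBI3, BIRC3 and TRAF1 held in each of the 6 fits that left out 1 library.

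ICAM1, an adhesion molecule, fell from 41.1 ± 1.07 to 18.6 ± 1.71 FPKM (a change of -1.11 on the log2 scale, limma adjusted p = 0.00307). CSF1, VIM and BCL2L1 were the remaining genes called lower. They, and BCL3, NFKBIZ, NFKBID, TBK1, IKBKG, CYLD and the ligands at or near 0 named further on, were singled out after their values were seen. BCL2A1, a survival factor and the most abundant target by mean FPKM, had 78.5, 71.9 and 75.4 FPKM in Vector and 41.0, 66.3 and 50.7 FPKM in LOC_OE (a change of -0.53 on the log2 scale, limma adjusted p = 0.0734). SDC4 and IL32, the next most abundant, were not called either, with log2 fold changes of -0.21 and -0.48 (limma adjusted p = 0.271 and 0.151).

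The 4 targets that rose were PLAU, IER3, GADD45B and PLAUR, of which all but PLAU are named because they rose. PLAU, the gene of urokinase, went from 16.6 ± 0.554 to 42.4 ± 6.25 FPKM (a change of 1.3 on the log2 scale, limma adjusted p = 0.00397). PLAUR, its receptor, went from 27.9 ± 1.21 to 47.4 ± 2.60 FPKM (log2 fold change 0.74). IER3, an early response gene, and GADD45B, a stress response gene, had log2 fold changes of 1.07 and 1.05. For all 4 the LOC_OE libraries lay above the Vector libraries.

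**Figure D4:**
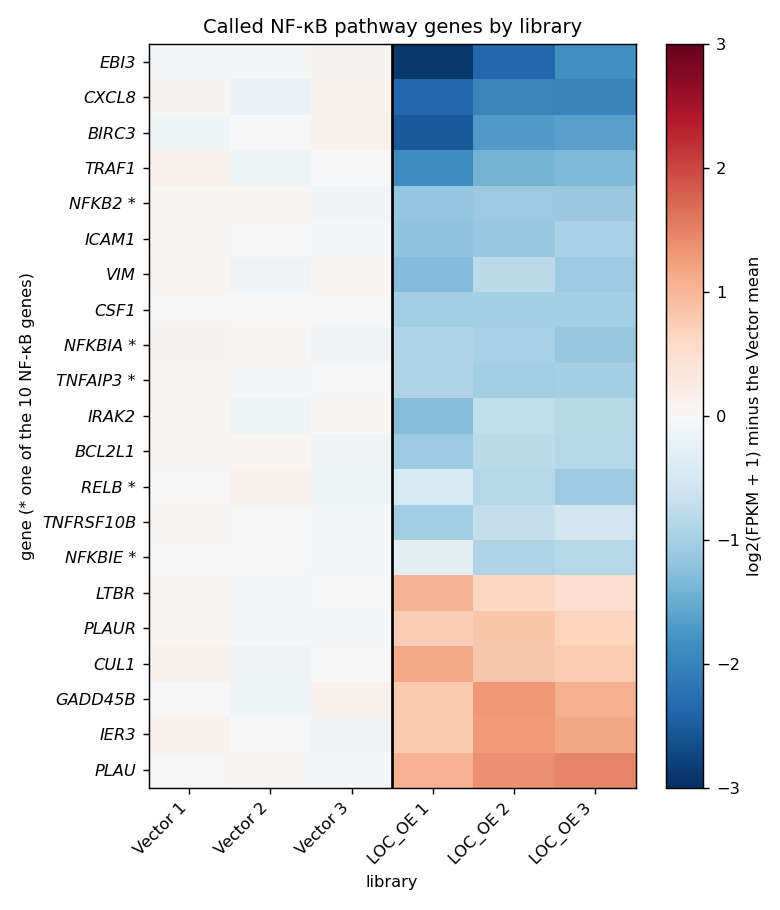
Log2(FPKM + 1) of each library (columns) minus the mean of the Vector libraries (colour, blue lower and red higher) for the called genes of the pathway (rows, ordered by log2 fold change, members marked with a star). The genes from EBI3 to NFKBIE are lower in all 3 LOC_OE libraries, and those from LTBR to PLAU are higher. CXCL8 is shown although it passed the filter through Vector alone.

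Of the 3 nuclear IκB proteins, which modify transcription in the nucleus, 0 were called in limma on log2(FPKM + 1). BCL3 went from 4.60 ± 0.444 to 2.77 ± 0.0129 FPKM, which is 60.1% of the Vector mean, and its change on that scale was -0.57 (limma adjusted p = 0.0112). It was past a fold change of 1.5 with limma voom at -0.73 (adjusted p = 0.0150), with a pseudocount of 0.1 at -0.71 (adjusted p = 0.0116) and after rescaling to the same sum of FPKM at -0.77 (adjusted p = 0.00527). In limma on log2(FPKM + 1), NFKBIZ and NFKBID had adjusted p-values above 0.05. Of the 10 kinases and IKK components, 0 were called in limma on log2(FPKM + 1). TBK1, an IKK-related kinase, passed the adjusted threshold with a log2 fold change of 0.57, and IKBKG, the gene of NEMO, with -0.53 (limma adjusted p = 0.00795 and 0.0350). IKBKG has a near-identical pseudogene copy, so its reads are uncertain. These are the only 2 of the 10 with an adjusted p under 0.05 in that fit. Both were also past a fold change of 1.5 with limma voom, IKBKG at -0.76 (adjusted p = 0.0324) and TBK1 at 0.61 (adjusted p = 0.00645), so that the count of 0 belongs to the log2(FPKM + 1) scale. After rescaling to the same sum of FPKM, TBK1 was at 0.33 (limma adjusted p = 0.0592).

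Of 18 adaptors and ubiquitin ligases, 3 were called. These were BIRC3 and TRAF1, both lower, and CUL1, the scaffold of the ligase that marks IκB for degradation, which went from 28.3 ± 2.25 to 54.3 ± 8.13 FPKM. Of the 15 other negative regulators, 13 passed the filter and IRAK2 was the one called, with a log2 fold change of -0.94 (limma adjusted p = 0.0128). IRAK2 is known as a mediator of signals from IL-1 and Toll-like receptors to NF-κB, so it does not do what the name of its list says. Its call held in 3 and that of CUL1 in 4 of the 6 fits that left out 1 library. CYLD, another deubiquitinating enzyme of the pathway, had 6.90, 6.14 and 6.94 FPKM in Vector and 2.54, 5.43 and 5.26 FPKM in LOC_OE and was not called.

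Among 18 receptors, 12 passed the filter. TNFRSF10B, a receptor for TRAIL, fell from 90.1 ± 1.72 to 53.0 ± 8.98 FPKM (log2 fold change -0.77), and LTBR, the receptor for lymphotoxin that feeds the non-canonical pathway, rose from 9.23 ± 0.396 to 15.9 ± 3.32 FPKM (log2 fold change 0.71, limma adjusted p = 0.0146 and 0.0211). The call of LTBR held in 1 and that of TNFRSF10B in 3 of the 6 fits that left out 1 library. TNFRSF12A and TNFRSF1A, with TNFRSF10B the receptors of highest mean FPKM, were not called. Of 10 ligands only TNFSF12 passed the filter, at 3.54 ± 0.319 FPKM in Vector and 3.21 ± 1.37 in LOC_OE. TNF was at most 0.0321 FPKM in any library, and TNFSF11 and CD40LG were listed at 0 in all.

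The genes whose pattern over the 6 libraries was most like that of NFKBIA, by Pearson's r of log2(FPKM + 1) among 13215 other genes averaging 1 FPKM or more, were ENPP1, GMIP and LRP10 (r = 0.999, 0.999 and 0.998). The 6 libraries share the difference between the groups. Among the members, TNFAIP3 ranked at place 75 and NFKB2 at place 86, with r of 0.987 and 0.985, and NFKB1 had an r of -0.69.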

How the data were processed

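Total RNA of 6 RKO libraries was sequenced as paired ends. The authors deposited 1 table of FPKM for 58735 genes, and the submitters' processing notes name HISAT2 2.0.4, StringTie 1.3.0 and hg38. There were 0 unused columns of values. Names, positions and merged exon lengths came from GENCODE 29, which held all identifiers. FPKM times length gave whole reads (within 0.05) for 100% of values, and the implied library sizes equalled median-of-ratios size factors, so the deposited FPKM were used without rescaling. Reads cover counting error only.

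Genes that reached 0.5 FPKM in 3 or more libraries were tested with limma 3.58.1 (R 4.3.3, variance trend) on log2(FPKM + 1), with all members tested over the whole table. Each member was above 0.5 FPKM in every library, so none needed a test below the filter. The fit was tested on simulated data. Named genes are all members, of each other list up to 6 called genes with the largest change, and the 3 most abundant receptors, ligands and targets. The members and lists were chosen with earlier results of these data known. The alternatives were another pseudocount, other filters, rescalings, no trend, array weights, a replicate block, voom on genes with 2 or more reads, other fold thresholds and leaving out each library. Figures used matplotlib 3.10.9.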

Additional observations from a re-analysis of the deposited data

How the results depend on the processing

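The decreases of NFKB2, NFKBIA and TNFAIP3 kept their direction and an adjusted p under 0.05 from limma in all 9 alternatives with all libraries and in all 6 fits without 1 library, with log2 fold changes of -1.37 to -1.09, -1.25 to -0.93 and -1.56 to -0.95. Among the 9, median-of-ratios rescaling could change little, since the deposited FPKM already carried those size factors. The number of members called was 3 without a filter on low FPKM, 2 at a fold change of at least 2, and 3 to 5 when a library was left out. The number of other pathway genes called was 27 with limma voom, 26 without a fold change threshold, 10 at a fold change of at least 2, and 10 to 18 when a library was left out. It was lowest without Vector replicate 2. Over all genes, 1157 were called without a filter on low FPKM, 2747 with limma voom, 3277 without a fold change threshold and 363 at a fold change of at least 2. When a library was left out, 371 to 1670 were called, with 672, 371 and 474 without Vector replicates 1, 2 and 3. Directions turned for members that were not called. REL had a log2 fold change of 0.076 with array weights and -0.099 to 0.14 when a library was left out, NFKBIB had -0.45 to 0.017 when a library was left out, and IKBKE had -0.063 after rescaling to the same sum of FPKM. Array weights, which weigh each library by its fit, gave NFKB1, RELA and NFKBIB an adjusted p under 0.05. The inhibitor sum per subunit sum, LOC_OE minus Vector, was -0.0271 and ranged from -0.0743 to 0.00946 when a library was left out, and these fits were chosen after seeing the data. The cause of these changes was not tested, apart from the smaller number of libraries or other gene set that an alternative uses.

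Replicate numbers are shared between the groups in the labels. Deviations of same-numbered libraries correlated at 0.11, -0.034 and 0.12, against -0.13 to 0.058 for the other combinations. Replicate numbers 1 and 3 passed the minimum of 0.1 set for pairing and replicate number 2 did not. Pairing thus stayed unsettled, and the main fit used no pairs. With the replicate number as a block, 4 members were called, since NFKBIE had an adjusted p of 0.0510 from limma, and 1435 genes were called in all. The fewest reads stood behind TNFAIP3, IKBKE and REL, between 72 and 298 in a library, and the coefficient of variation within LOC_OE was at least 25.3% for NFKB1, REL, RELB, NFKBIB and NFKBIE.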

Other observations

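Some chemokine and inflammatory targets were too low for the test and are given here as reads, chosen after their values were seen. For CXCL1 the Vector libraries held 9, 11 and 9 reads and each LOC_OE library 0, where a count of 0 allows up to 3 reads. CCL5, another chemokine, was at 6, 2 and 5 reads in Vector and at 0 in LOC_OE. PTGS2, the gene of cyclooxygenase-2, was at 17, 29 and 22 reads in Vector, against 1, 5 and 1 with the long non-coding RNA. These genes were below the filter of 0.5 FPKM in every library.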
